A study of Mus musculus with 15 samples.

Results

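The 34 genes described here encode amino acid transporters, enzymes that make serine, glycine, proline, asparagine and folate one-carbon units, aminotransferases and transsulfuration enzymes.
They were chosen by gene symbol from these pathways, with no threshold on a measured value but with earlier results of these data known. The shares over all genes given beside their counts are therefore a description, not an independent test of the list.
All 34 were found by their Ensembl identifier among the 57186 genes of the count table, and all 34 were among the 19839 genes that held at least 10 counts summed over the libraries and were tested.
By role, 14 are transporters and 20 are enzymes, and the class of each is given where it is described.

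Messenger RNA was sequenced from RAW 264.7 cells, a mouse macrophage line, in 15 libraries that fall into 5 groups of 3.
The control cells received no particles, and the other groups were treated for 6 h with silica nanoparticles (SNPs) at the highest nontoxic dose of each particle.
SNP100 and SNP50 are nonporous particles of 100 and 50 nm given at 50 and 25 µg/mL, MSNP is a mesoporous particle of 100 nm given at 200 µg/mL, and HMSNP is a hollow mesoporous particle of 100 nm also given at 200 µg/mL.
The RAW 264.7 line is a single transformed line grown in culture, so the values describe that line and no other macrophage.

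Cells take up amino acids through membrane transporters, many of which exchange one amino acid for another, and CD98 is the heavy chain that carries several of these exchangers to the cell surface.
Serine is made from a glycolytic intermediate in a short pathway of enzymes, and its conversion to glycine loads a one-carbon unit on folate, which feeds nucleotide synthesis and methylation.
Many of these genes are induced by ATF4, a transcription factor whose translation rises when amino acids run short or when unfolded proteins or other stresses slow protein synthesis, and macrophages draw on serine and glutamine when they are activated.

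Total counts per library lay between 29369934 and 42617812.
Control replicate 3 stood apart from the other controls: its median absolute log2 difference was 0.371 from Control replicate 1 and 0.434 from Control replicate 2, against at most 0.11 between any libraries of one treated group.
Genes with a short summed exon length read high in this library and genes with a long one read low. The medians were 0.61 and -0.60 on the log2 scale in the 10% of genes with the shortest and the longest exon length.
The members in Control replicate 3 lay at a median of -0.03 on the log2 scale from the mean of the other controls, with a range from -1.61 (Aldh1l2) to 0.66, so the results against the controls are also given without it where that matters. Control replicates 1 and 2 also differed, with a mean chi-square of their counts of 66.2, against at most 13.9 between libraries of a treated group. The fit shares 1 spread per gene over all groups, so each adjusted p against the controls also draws on the treated libraries.
All 10 macrophage markers held more than 10 counts in every library, and their summed level was 13530 to 14490 CPM (counts scaled to library size) in the MSNP-treated group against 15890 to 20510 CPM in the other groups.
With MSNP 2 of them rose against the controls (Cd68 and Fcgr3), 5 fell (Cd14, Csf1r, Fcgr1, Itgam and Lyz2) and 3 did not pass.
The T cell list (Cd3d, Cd3e, Cd4, Cd8a and Trac) summed to 0.2964 to 0.3966 CPM in the MSNP-treated group and to at most 0.09165 CPM elsewhere, with Cd3d, Cd3e, Cd8a and Trac at 3 counts or fewer in every library, and B cell, fibroblast, epithelial and neutrophil lists summed to at most 0.1361 CPM in any library.
The part of these marker levels in the members' values was not tested.
Fewer cells and less RNA per cell cannot be told apart in these bulk samples. The library titles of each group also start with a number of their own, whose meaning the labels do not give. Whatever this number marks cannot be told apart from the treatment.

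Levels of different genes were compared per length, as RPKM, the CPM per kilobase of exon. The length merges the exons of all annotated transcripts of a gene, and which of them these cells use was not analysed. The levels and their order depend on that choice of length.
In the control cells 22 members stood at 10 RPKM or more, and 8 of them at 50 RPKM or more.
The highest level belonged to Shmt2, the mitochondrial enzyme that splits serine into glycine and a one-carbon unit, at 109.6 ± 8.46 RPKM (SD, n = 3 here and for every group value that follows).
Phgdh, the first enzyme of serine synthesis, followed at 89.1 ± 11.8 RPKM.
The light chain Slc7a5 and the heavy chain Slc3a2 of CD98 stood at 86.6 ± 9.53 and 83.1 ± 8.16 RPKM, and the glutamine transporter Slc1a5 at 76.4 ± 0.949 RPKM.
The order of these 4 genes below Shmt2 is not resolved, since neighbours lie within 1 SD of each other.
At the low end stood Slc1a4 with 3.98 ± 0.980 RPKM, Aldh1l2 with 3.41 ± 1.90 RPKM, Slc6a9 with 3.09 ± 0.663 RPKM and Cth with 1.09 ± 0.111 RPKM.
Cbs and Slc7a3 were barely detected, at 0.0443 ± 0.00781 and 0.0352 ± 0.0103 RPKM, and stayed below 1 CPM in every group.

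**Figure D1:**
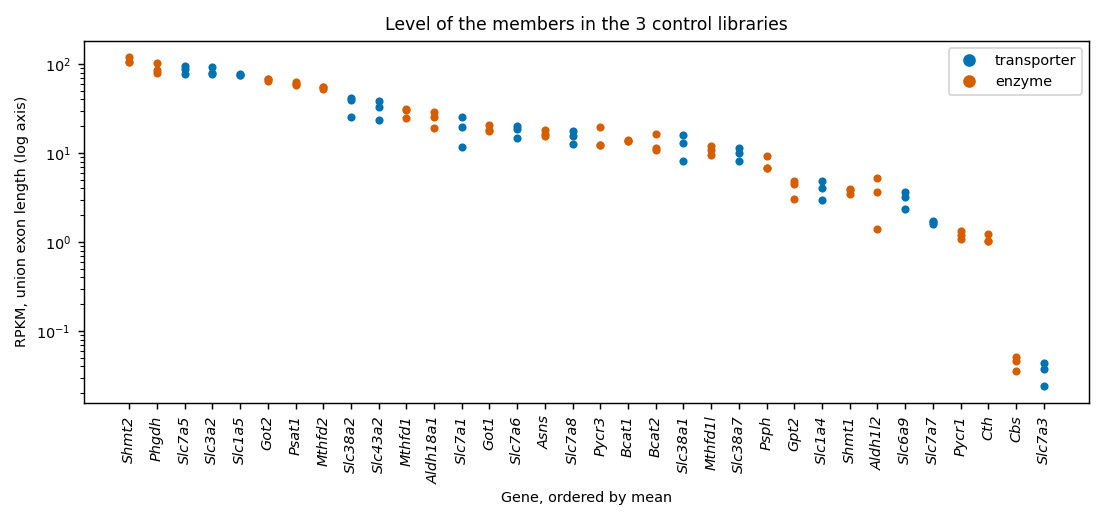
Level of each of the 34 members in the nontreated controls, in RPKM on a log axis, ordered from high to low. Each point is 1 of the 3 libraries, blue for transporters and orange for enzymes. Shmt2 is the highest at 109.6 RPKM, while Cbs and Slc7a3 lie at 0.0443 and 0.0352 RPKM.

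Members of most classes fell with the hollow particle.
In the HMSNP-treated group 17 of the 34 members fell and 1 rose against the controls at an adjusted p under 0.05 (edgeR quasi-likelihood test with Benjamini-Hochberg adjustment over all 19839 genes, as for every adjusted p here), where 5.16% of all genes passed the test, 2.46% higher and 2.7% lower.
The median log2 fold change of the members was -0.35, against -0.04 over all genes tested.
Of the 20 enzymes 12 fell and 0 rose, and of the 14 transporters 5 fell and 1 rose.
The members that fell were Slc3a2, Slc1a4, Slc6a9, Slc38a2 and Slc38a7 among the transporters, and Phgdh, Psat1, Psph, Shmt2, Mthfd2, Aldh18a1, Pycr1, Asns, Gpt2, Got1, Bcat1 and Cth among the enzymes, while Slc7a8 rose.
The count of members called was 20 without Control replicate 2, where 25.2% of all genes passed, and 20 without Control replicate 3, where 8.66% passed. With the filterByExpr filter, which drops genes with low counts, 18 of 33 members and 8.97% of 14284 genes passed.
With only the 6 libraries of the comparison in the model 6 members passed, where 0.439% of all genes did. The 12 calls lost there were Slc3a2, Slc7a8, Slc38a2, Slc38a7, Phgdh, Psat1, Shmt2, Aldh18a1, Pycr1, Got1, Gpt2 and Bcat1.
By their ranges, 18 members had all HMSNP libraries below and 1 all above every control, where the groups did not overlap in 22.9% of all genes, 12% lower and 10.9% higher.

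In the MSNP-treated group 12 members rose and 2 fell against the controls, where 22.8% of all genes passed the test, 11.8% higher and 11% lower.
The median log2 fold change of the members was 0.20, against -0.05 over all genes.
Slc3a2, Slc7a8, Slc1a5, Slc38a7, Phgdh, Shmt1, Mthfd1l, Mthfd2, Asns, Gpt2, Got1 and Cth rose, and the transporters Slc7a7 and Slc43a2 fell.
The MSNP libraries lay above every control in 16 members and below every control in 2, where the groups did not overlap in 33.2% of all genes, 17% higher and 16.2% lower.
The count of 14 called became 22 without Control replicate 2, where 33.2% of all genes passed, and 19 without Control replicate 3, where 29.5% passed. With the filterByExpr filter 16 of 33 members passed, where 33.1% of 14284 genes did.
Slc3a2, Slc38a7, Phgdh, Mthfd2, Asns, Gpt2, Got1 and Cth rose here and fell with HMSNP. With only the 6 libraries of the comparison, 10 members passed with MSNP, where 13% of all genes did. The 4 MSNP calls lost there were Slc1a5, Asns, Mthfd1l and Phgdh. In such fits the HMSNP calls of Slc3a2, Slc38a7, Phgdh, Gpt2 and Got1 and the MSNP calls of Phgdh and Asns were lost. Mthfd2 and Cth kept both calls.
These comparisons share the 3 controls, and each one's values are given side by side below.

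**Figure D2:**
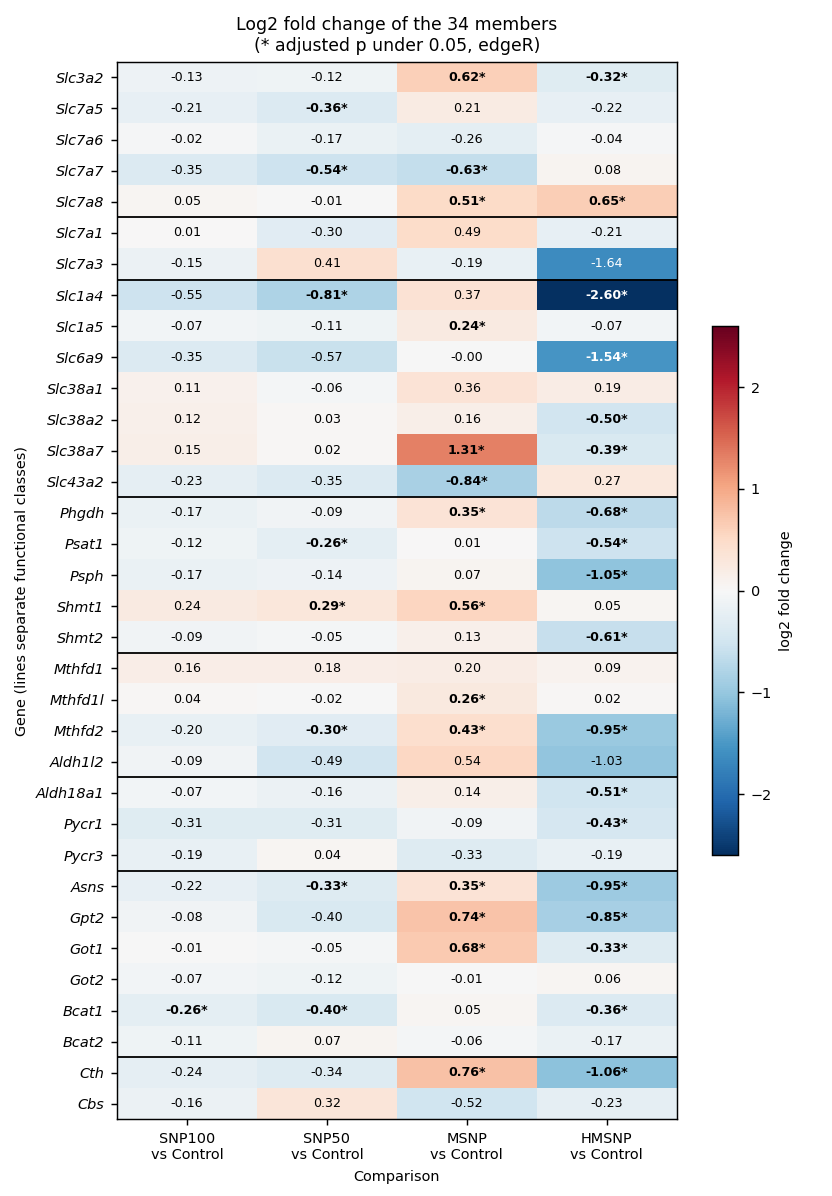
Log2 fold change of each of the 34 members in each treated group against the controls, printed in each cell over a colour scale with red for higher and blue for lower. Black lines separate the classes of genes, and bold values with a star have an adjusted p under 0.05. The HMSNP column is mostly blue, with 26 members lower, 17 of them at an adjusted p under 0.05. The MSNP column is mostly red, with 24 members higher, 12 of them at an adjusted p under 0.05.

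Promoter sequence was available for 27 of the 34 members in the RefSeq promoter table of GRCm38.p6, whose windows run from 250 bases before to 50 bases after each transcript start.
The windows were searched on both strands for the core of the composite element bound by C/EBP and ATF factors, spelled TGATGNAA with N for any base, and for the E-box CACGTG.
The first was found in 5 of the 27 member genes (18.5%: Asns, Got1, Pycr1, Slc1a4 and Slc7a7) and in 4.51% of the 27025 genes of the table, and the second in 3 of 27 (11.1%: Aldh18a1, Cbs and Slc38a7) and in 8.09% of the table.
A match describes these letters alone.
The stretches around the match are printed for the members described by library, since Slc1a4 has the largest fall, Asns and Got1 moved in both directions and Slc38a7 has the largest rise, and the capitals mark the match.
They were placed on the files' build GRCm39 by exact match, all on the minus strand, and all lie inside exons of longer transcripts in GENCODE vM39.
The Asns match lies at bases -23 to -16 from the transcript start, in the stretch chr6:7693214-7693243, and the Got1 match at -102 to -95, in chr19:43513128-43513157.
The Slc1a4 match spans the start at -4 to 4, in chr11:20282699-20282728, and the Slc38a7 match lies at -34 to -29, in chr8:96580137-96580164.
In Got1 and Slc1a4 the element reads on the other strand.
Asns: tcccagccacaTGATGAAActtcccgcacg
Got1: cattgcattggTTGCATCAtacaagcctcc
Slc1a4: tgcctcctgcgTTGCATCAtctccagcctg
Slc38a7: tgattcaggctCACGTGttacttgagtc

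All 5 genes of serine and glycine synthesis were lower with HMSNP than with MSNP, and 4 of them were lower with HMSNP than in the controls.
Phgdh (ENSMUSG00000053398, chr3:98220484-98255047), the entry enzyme, stood at 225, 241 and 289 CPM in the control libraries, 335, 318 and 309 CPM with MSNP and 159, 162 and 152 CPM with HMSNP.
All MSNP libraries lay above and all HMSNP libraries below every control.
edgeR gave a log2 fold change against the controls of 0.35 (SE 0.080, adjusted p = 0.00477) for MSNP and -0.68 (SE 0.0804, adjusted p = 1.36e-04) for HMSNP.

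Psph (ENSMUSG00000029446, chr5:129841925-129864513), which removes the phosphate in the last step, stood at 49.5, 49.4 and 68.9 CPM in the controls, 61.2, 58.1 and 56.6 CPM with MSNP and 26.6, 27.6 and 26.8 CPM with HMSNP.
The HMSNP libraries lay below every other library of the 15, and the MSNP libraries lay within the range of the controls.
This was a log2 fold change of -1.05 (SE 0.112, adjusted p = 4.45e-05) for HMSNP and 0.07 (SE 0.11, adjusted p = 0.714) for MSNP, and without Control replicate 3, the highest control, these were -0.88 (adjusted p = 4.11e-08) and 0.25 (adjusted p = 0.00396).
Part of the Psph exons, 465 bases, overlaps Cct6a on the opposite strand, and whether the counting used strand is not given in the sources used here.

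Psat1, the aminotransferase between these steps, fell from 356 ± 16.4 to 244 ± 5.84 CPM with HMSNP, a log2 fold change of -0.54 (adjusted p = 6.59e-05), and stood at 359 ± 17.1 CPM with MSNP (adjusted p = 0.917). With only the 6 libraries of the comparison the HMSNP call of Psat1 was lost, and so was that of Shmt2.
Against the controls, of the serine hydroxymethyltransferases, which make glycine from serine, Shmt2 passed with HMSNP and Shmt1 with MSNP, and both were lower with HMSNP than with MSNP.
Mitochondrial Shmt2 fell with HMSNP from 450.3 ± 34.6 to 295 ± 8.44 CPM (-0.61, adjusted p = 3.75e-05), and its level with MSNP was 494 ± 3.22 CPM (0.13, adjusted p = 0.144).
The MSNP value of Shmt2 was 0.21 (adjusted p = 0.00101) without Control replicate 3, which passed.
Cytosolic Shmt1 rose with MSNP from 24 ± 1.63 to 35.3 ± 1.28 CPM (0.56, adjusted p = 1.61e-05), and its level with HMSNP was 25 ± 0.341 CPM (0.05, adjusted p = 0.647).
The difference between the 2 genes was not tested.
Shmt2 shares 727 exon bases with Ndufa4l2 and Shmt1 shares 346 with Smcr8, both on the opposite strand.

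Among the 4 folate enzymes the mitochondrial Mthfd2 and Aldh1l2 had the largest differences between the particles.
Mthfd2 (ENSMUSG00000005667, chr6:83282673-83302890), the mitochondrial dehydrogenase and cyclohydrolase that oxidises the one-carbon unit, stood at 192, 200.1 and 201 CPM in the controls, 283, 261 and 256 CPM with MSNP and 99, 106 and 101 CPM with HMSNP.
The 3 groups did not overlap, with HMSNP lowest and MSNP highest.
Relative to the controls, the fit gave 0.43 (SE 0.059, adjusted p = 5.74e-05) for MSNP and -0.95 (SE 0.0596, adjusted p = 2.55e-07) for HMSNP.

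Aldh1l2 (ENSMUSG00000020256, chr10:83323314-83370005), the mitochondrial enzyme that oxidises formyl-folate, stood at 27.2, 39 and 10.6 CPM in the controls, 39.3, 38.8 and 33.2 CPM with MSNP and 12.3, 13.6 and 11.7 CPM with HMSNP.
The control libraries spanned both treated groups, since Control replicate 3 lay below every HMSNP library and Control replicate 2 close to the highest MSNP library.
Neither comparison with the controls passed, with 0.54 (SE 0.289, adjusted p = 0.207) for MSNP and -1.03 (SE 0.297, adjusted p = 0.0607) for HMSNP, but without Control replicate 3 the HMSNP value was -1.40 (adjusted p = 6.54e-07) and the MSNP value 0.17 (adjusted p = 0.33).
Aldh1l2 shares 1056 exon bases with Nopchap1 on the opposite strand.

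Mthfd1l, which releases formate from mitochondria, rose with MSNP, from 124 ± 14.6 to 149 ± 3.07 CPM (0.26, adjusted p = 0.0226), a call that was lost when MSNP replicate 1, 2 or 3 was left out (adjusted p = 0.0775, 0.0788 and 0.0516).
Its cytosolic counterpart Mthfd1 was measured at 141 ± 17.2 CPM in the controls, 162 ± 2.52 CPM with MSNP and 150.3 ± 3.49 CPM with HMSNP, and passed in none of the 7 comparisons.

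Asparagine synthetase and 3 of the 5 aminotransferases fell with HMSNP together with the serine genes, and the same class held 3 of the genes that rose with MSNP.
Asns (ENSMUSG00000029752, chr6:7671667-7728461), which makes asparagine from aspartate and glutamine and is a classic ATF4 target, stood at 181, 193 and 213 CPM in the controls, 260.1, 243 and 246 CPM with MSNP and 97.3, 109 and 96.9 CPM with HMSNP.
The groups did not overlap, and Asns shares 391 exon bases with the long noncoding RNA 1700012J15Rik on the opposite strand.
Measured against the controls, the change on the log2 scale was 0.35 (SE 0.073, adjusted p = 0.00217) for MSNP and -0.95 (SE 0.0737, adjusted p = 1.71e-06) for HMSNP, and with an offset that removes the length trend of each library the MSNP value was 0.19 (adjusted p = 0.286).

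Gpt2 (ENSMUSG00000031700, chr8:86218810-86255577), the mitochondrial alanine aminotransferase, stood at 42.3, 45.6 and 28.6 CPM in the controls, 65.9, 68.4 and 60.9 CPM with MSNP and 20.6, 22.8 and 21.1 CPM with HMSNP.
All MSNP libraries were above and all HMSNP libraries below every control, although the controls themselves spread widely.
On the log2 scale the difference from the controls was 0.74 (SE 0.126, adjusted p = 4.02e-04) for MSNP and -0.85 (SE 0.128, adjusted p = 0.00106) for HMSNP.

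Got1 (ENSMUSG00000025190, chr19:43488188-43513674), the cytosolic aspartate aminotransferase, stood at 91.9, 93.3 and 106 CPM in the controls, 158, 154 and 155 CPM with MSNP and 75.4, 78.8 and 77.3 CPM with HMSNP.
The MSNP libraries were tightly grouped above all others.
Against the controls, the log2 fold change was 0.68 (SE 0.0626, adjusted p = 8.70e-07) for MSNP and -0.33 (SE 0.0625, adjusted p = 0.00591) for HMSNP.
Its mitochondrial counterpart Got2 stood at 370 ± 11.7 CPM in the controls, 367 ± 5.9 CPM with MSNP and 385 ± 12.6 CPM with HMSNP, and passed in none of the comparisons.

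Of the branched-chain aminotransferases the cytosolic Bcat1 fell with HMSNP from 178 ± 3.54 to 138 ± 2.65 CPM (-0.36, adjusted p = 9.57e-04), and the mitochondrial Bcat2 passed in none (-0.17 with HMSNP, adjusted p = 0.383). The HMSNP call of Bcat1 was lost with only the 6 libraries of the comparison.

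Of the transsulfuration and proline genes, Cth moved both ways and 2 of the 3 proline genes fell with HMSNP.
Cth (ENSMUSG00000028179, chr3:157599868-157630739), which releases cysteine from cystathionine in the transsulfuration pathway, was a low gene at 4.96, 5.0 and 5.91 CPM in the controls, 8.89, 9.58 and 8.51 CPM with MSNP and 2.5, 2.79 and 2.36 CPM with HMSNP.
The 3 groups did not overlap, and the level with MSNP was over 3 times that with HMSNP.
edgeR gave a log2 fold change against the controls of 0.76 (SE 0.11, adjusted p = 9.46e-05) for MSNP and -1.06 (SE 0.118, adjusted p = 7.57e-05) for HMSNP.
Cbs, the enzyme before it, held 0.405 to 0.579 CPM in the controls and differed in no comparison.

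Aldh18a1, which starts proline synthesis from glutamate, fell with HMSNP from 128 ± 25.5 to 89.8 ± 3.08 CPM (-0.51, adjusted p = 0.0111), and this call was lost without HMSNP replicate 1 (adjusted p = 0.0883) or HMSNP replicate 3 (adjusted p = 0.0502).
Pycr1, the mitochondrial reductase of the last step, fell with HMSNP from 5.97 ± 0.586 to 4.43 ± 0.311 CPM (-0.43, adjusted p = 0.0352), a call that was lost, among others, without any 1 of the 3 HMSNP libraries (adjusted p = 0.0814, 0.0957 and 0.141) and without Control replicate 3 (adjusted p = 0.0587).
Pycr3, the cytosolic reductase, passed in no comparison.
With MSNP none of the 3 proline genes passed against the controls.

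The neutral amino acid and glycine transporters held the largest decrease and the largest increase of all members.
Slc1a4 (ENSMUSG00000020142, chr11:20252180-20282774), an exchanger of alanine, serine and cysteine, stood at 16.8, 20.3 and 12.2 CPM in the controls and at 2.53, 2.76 and 2.84 CPM with HMSNP.
The MSNP libraries read 22.5, 20.8 and 20.6 CPM, the SNP100 libraries 12.2, 11 and 10.6 CPM and the SNP50 libraries 8.98, 9.75 and 9.41 CPM.
Every HMSNP library lay far below every other library, and the SNP100 and SNP50 libraries lay below every control, the highest of SNP100 at 12.17 CPM just under the lowest control at 12.23 CPM.
The log2 fold change with HMSNP was -2.60 (SE 0.152, adjusted p = 1.16e-07), a fold of 0.165, and with MSNP it was 0.37 (SE 0.134, adjusted p = 0.0595), which became 0.20 (adjusted p = 0.0783) without Control replicate 3. Slc1a4 shares 305 exon bases with Gm72467, a long noncoding RNA on the opposite strand.

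Slc6a9 (ENSMUSG00000028542, chr4:117691703-117732395), a glycine transporter, stood at 19.6, 22.3 and 14.4 CPM in the controls, 19.8, 19 and 17.5 CPM with MSNP and 5.05, 7.37 and 6.85 CPM with HMSNP.
The HMSNP libraries were below all others, and the MSNP libraries lay within the range of the controls.
This was a log2 fold change of -1.54 (SE 0.159, adjusted p = 3.64e-05) for HMSNP and -0.00 (adjusted p = 0.995) for MSNP.
Slc6a9 shares 1429 exon bases with Ccdc24 and 551 with B4galt2 on the opposite strand.

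Slc38a7 (ENSMUSG00000036534, chr8:96562548-96580189), which carries glutamine and asparagine and has been placed on lysosomes, stood at 55.5, 62.5 and 44.4 CPM in the controls, 137, 136 and 131 CPM with MSNP and 38.3, 41.4 and 43.9 CPM with HMSNP.
Every MSNP library held over 2 times the level of every control.
The log2 fold change with MSNP was 1.31 (SE 0.0988, adjusted p = 9.63e-08), the largest increase among the members, and with HMSNP -0.39 (SE 0.0981, adjusted p = 0.0323).
The HMSNP call was lost on leaving out, among others, HMSNP replicate 1 (adjusted p = 0.194), HMSNP replicate 2 (0.105), HMSNP replicate 3 (0.0539) or Control replicate 1 (0.0847), while without Control replicate 3 the value was -0.52 (adjusted p = 1.27e-05).

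Slc43a2 (ENSMUSG00000038178, chr11:75421362-75477630), a facilitative carrier of large neutral amino acids, went the other way, at 409.9, 475 and 290.5 CPM in the controls, 222, 228 and 207 CPM with MSNP and 451, 499 and 465 CPM with HMSNP.
The MSNP libraries lay below every control.
Relative to the controls, the fit gave -0.84 (SE 0.127, adjusted p = 1.46e-04) for MSNP and 0.27 (SE 0.126, adjusted p = 0.211) for HMSNP.
The HMSNP libraries lay within or just above the range of the controls.
Slc43a2 shares 2212 exon bases with Gm45606, a long noncoding RNA on the opposite strand.

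Slc38a2, the sodium-coupled transporter that is induced when amino acids are scarce, read 343 ± 87 CPM in the controls and 242 ± 3.96 CPM with HMSNP (-0.50, adjusted p = 0.0375), but Control replicate 3 alone, at 243.9 CPM, fell among the HMSNP libraries, and the call was lost when any HMSNP library or Control replicate 1 or 2, among others, was left out (adjusted p up to 0.164).
Without Control replicate 3 the value was -0.70 (adjusted p = 6.64e-09).
Slc1a5, the main glutamine importer, rose with MSNP from 414 ± 5.13 to 488 ± 5.17 CPM (0.24, adjusted p = 0.00505) and stood at 394 ± 15 CPM with HMSNP (adjusted p = 0.439), and Slc38a1, another glutamine transporter, passed in no comparison. The MSNP call of Slc1a5 was lost with only the 6 libraries of that comparison.

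**Figure D3:**
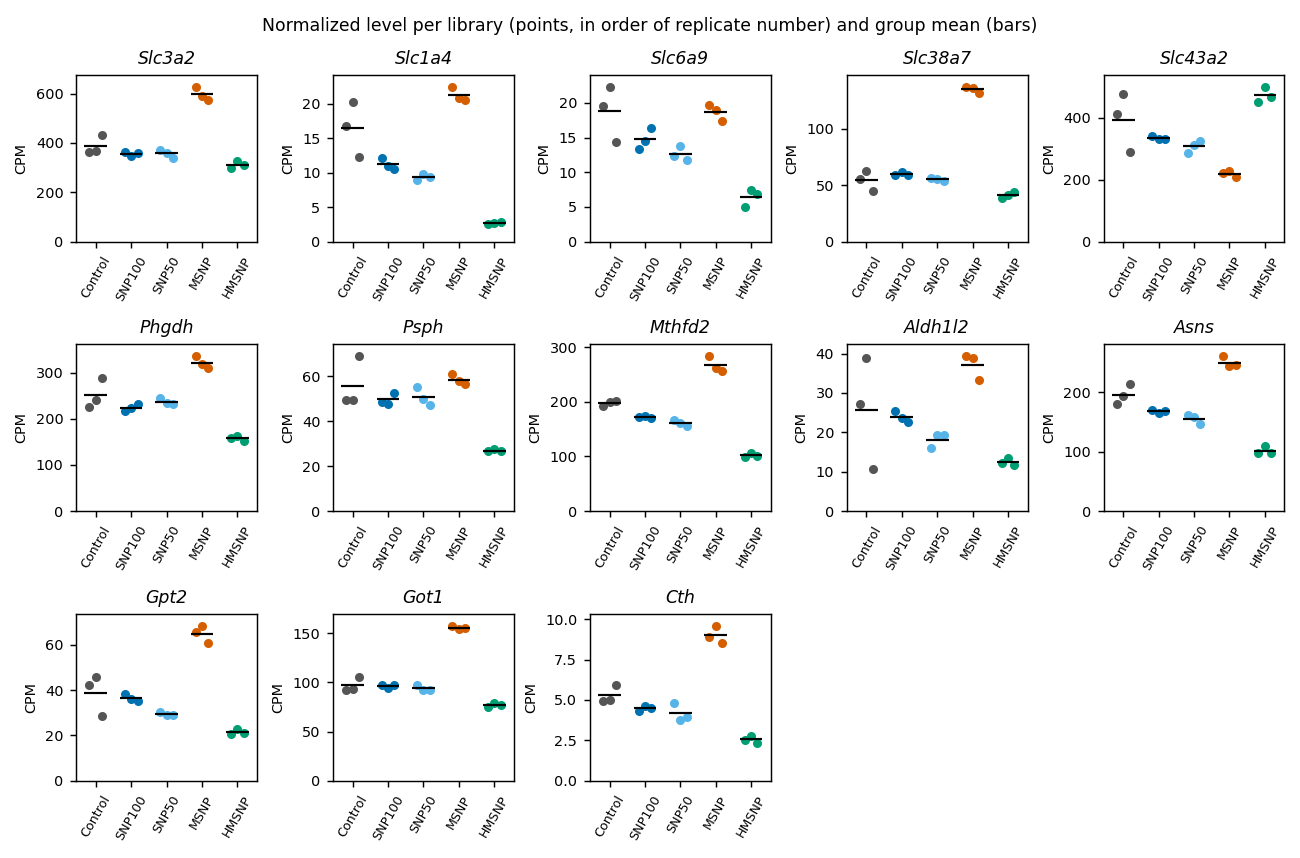
CPM of the members described by library in each of the 15 libraries, one panel per gene with its own linear axis from 0. Points are libraries, grouped as Control, SNP100, SNP50, MSNP and HMSNP, and bars are group means. In Slc1a4 the HMSNP libraries lie at 2.53 to 2.84 CPM, below all others, and in Slc38a7 the MSNP libraries lie at 131 to 137 CPM, above all others.

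Among the CD98 heavy chain and its light chains, 2 genes rose and 1 fell with MSNP, and 1 rose and 1 fell with HMSNP.
Slc3a2 (ENSMUSG00000010095, chr19:8684245-8701108), the heavy chain, stood at 364, 368 and 432 CPM in the controls, 627, 592 and 572 CPM with MSNP and 299.5, 326 and 309 CPM with HMSNP.
The 3 groups did not overlap.
Measured against the controls, the change on the log2 scale was 0.62 (SE 0.0732, adjusted p = 1.21e-05) for MSNP and -0.32 (SE 0.073, adjusted p = 0.0216) for HMSNP, and the second call was lost without HMSNP replicate 1 (adjusted p = 0.0989) or HMSNP replicate 3 (adjusted p = 0.0804).
Slc3a2 shares 743 exon bases with Snhg1, a snoRNA host gene on the opposite strand.

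Among the light chains, Slc7a8 rose with both particles, from 142 ± 23 CPM in the controls to 201 ± 3.57 CPM with MSNP (0.51, adjusted p = 0.0014) and 222 ± 7.0 CPM with HMSNP (0.65, adjusted p = 0.00131).
It carries large and small neutral amino acids, and it is the 1 member that rose with HMSNP. The HMSNP call of Slc7a8 was lost with only the 6 libraries of the comparison.
Slc7a7, which exports cationic amino acids in exchange for neutral ones, fell with MSNP from 10.1 ± 0.359 to 6.53 ± 0.0765 CPM (-0.63, adjusted p = 1.17e-04) and stood at 10.6 ± 1.15 CPM with HMSNP (adjusted p = 0.638).
It shares 633 exon bases with Oxa1l on the opposite strand.
Slc7a5, the leucine exchanger and the most abundant light chain, gave 0.21 with MSNP (adjusted p = 0.0504) and -0.22 with HMSNP (adjusted p = 0.0948).
These became 0.14 (adjusted p = 0.0484) and -0.30 (adjusted p = 6.29e-04) without Control replicate 3, which both passed.
The light chain Slc7a6 passed in no comparison.
Of the cationic transporters, the arginine and lysine carrier Slc7a1 ranged from 138 to 299.5 CPM over the controls.
It read 324, 325 and 291 CPM with MSNP and 193, 200.5 and 187 CPM with HMSNP, both overlapping that range, and passed against the controls with neither (0.49, adjusted p = 0.0727, and -0.21, adjusted p = 0.504).
The HMSNP value of Slc7a1 was -0.46 (adjusted p = 0.00274) without Control replicate 3, and the MSNP value was 0.76 (adjusted p = 0.00224) without Control replicate 2.
Slc7a3, a relative of Slc7a1, stayed below 1 CPM.

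HMSNP and MSNP were given at the same dose, time and nominal diameter, so their direct comparison needs no control library for its means.
The hollow particle was also made by another route, in which a silica core is coated and then etched, so a hollow core and other differences between the particles cannot be told apart.
Of the 34 members, 23 were lower and 2 higher with HMSNP than with MSNP, where 20.2% of all genes passed the test, 9.22% higher and 11% lower.
The median log2 difference was -0.61 over the members and 0.00 over all genes, and 11 members were lower by at least 2-fold and 1 higher, where 6.45% of all genes passed at that size.
The groups did not overlap in 27 members that were lower and 5 that were higher, against 45.3% of all genes, 23.7% lower and 21.6% higher.
Without Control replicate 3 the count was 26, where 33.9% of all genes passed, and with only these 6 libraries it was 30, where 40.9% passed. With the filterByExpr filter it was 25 of 33 members, where 28.7% of 14284 genes passed.

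The largest difference was that of Slc1a4 at -2.97 (SE 0.152, adjusted p = 1.71e-09), followed by Cth at -1.82 (SE 0.117, adjusted p = 1.91e-08) and Slc38a7 at -1.71 (SE 0.0999, adjusted p = 7.04e-09).
The aminotransferase Gpt2 gave -1.60 (SE 0.129, adjusted p = 2.29e-07), Aldh1l2 -1.57 (SE 0.298, adjusted p = 0.00121) and the glycine transporter Slc6a9 -1.54 (SE 0.16, adjusted p = 3.47e-06).
The other members at 2-fold or more were Mthfd2 at -1.38, Asns at -1.30, Psph at -1.12, Phgdh at -1.02 and Got1 at -1.01, each with an adjusted p of at most 2.31e-06.
These 11 genes cover the neutral amino acid and glycine transporters and every enzyme class except proline synthesis, with none from the CD98 and cationic transporters.
Slc3a2 gave -0.94 (SE 0.0735, adjusted p = 1.70e-07).
The members higher with HMSNP were Slc43a2 at 1.11 (SE 0.127, adjusted p = 1.06e-05) and Slc7a7 at 0.70 (SE 0.0925, adjusted p = 4.04e-05).

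Slc7a1 gave -0.69 (adjusted p = 0.0136), a call lost without MSNP replicate 1 or 2 or HMSNP replicate 1 or 3 (adjusted p up to 0.0597).
The calls of Mthfd1l (-0.24, adjusted p = 0.0406) and Pycr1 (-0.34, adjusted p = 0.0418) were lost without any 1 of the MSNP libraries (adjusted p = 0.0986 to 0.141 and 0.0524 to 0.128), among others.
The 9 members that did not pass were Slc7a8, Slc7a6, Slc7a3, Slc38a1, Mthfd1, Pycr3, Got2, Bcat2 and Cbs.
For Got2 the log2 difference was 0.07 (95% interval -0.05 to 0.19, adjusted p = 0.483), for Mthfd1 -0.10 (95% interval -0.27 to 0.06, adjusted p = 0.439) and for Slc7a8 0.14 (95% interval -0.07 to 0.35, adjusted p = 0.40), so that for these 3 the interval leaves out a 2-fold difference.
At the depth of Slc7a3 the interval was far wider, -1.44 (95% interval -2.63 to -0.26, adjusted p = 0.0905).

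**Figure D4:**
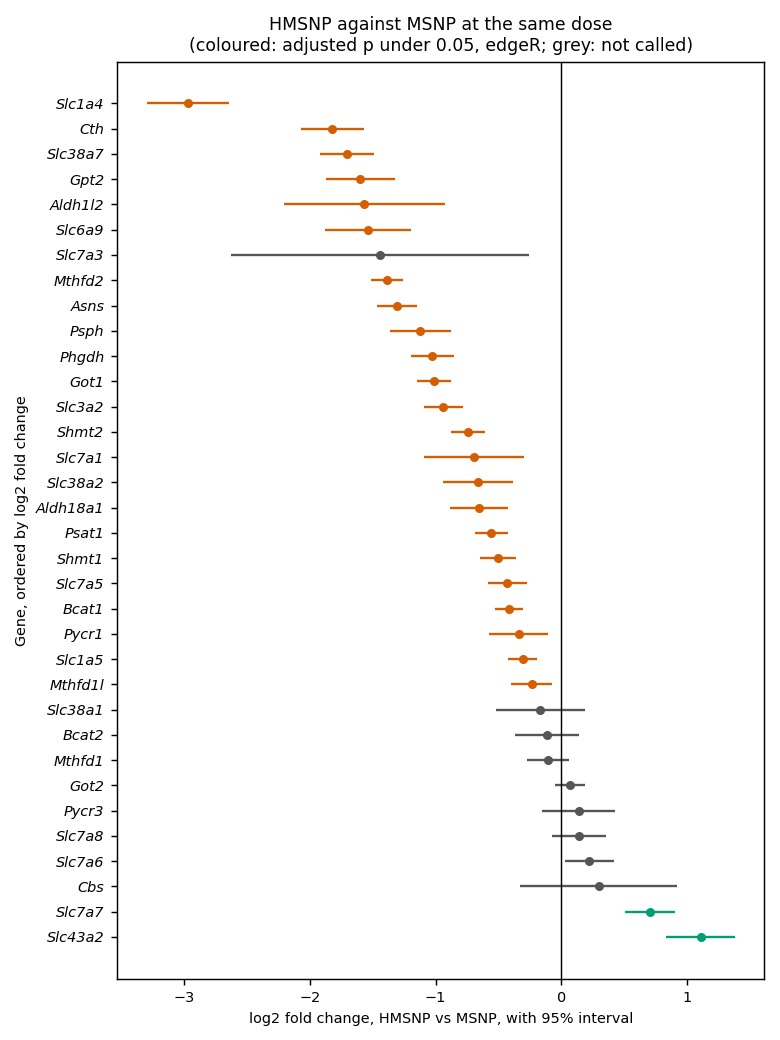
Log2 difference HMSNP minus MSNP of each of the 34 members with its 95% interval from the fit, ordered by value. Orange points are lower and green points higher with HMSNP at an adjusted p under 0.05, grey points did not pass, and the line at 0 marks no difference. Slc1a4 lies lowest at -2.97, 11 members lie at -1 or below with an adjusted p under 0.05, and Slc43a2 is the highest of the members that passed, at 1.11.

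The nonporous particles were given at lower doses than the porous ones, and in the fit of all libraries fewer members passed with them.
With SNP100, 1 member passed against the controls, where 0.912% of all genes did: Bcat1 fell, from 175, 177 and 182 CPM to 149, 146 and 151 CPM (-0.26, adjusted p = 0.0326).
This call was lost in 13 of the 15 fits that left out 1 library, among them those without SNP100 replicate 2 (adjusted p = 0.159) and Control replicate 1 (adjusted p = 0.0985).
Without Control replicate 3 the count was 10, where 5.16% of all genes passed, and Slc1a4 then gave -0.73 (adjusted p = 7.04e-05) against -0.55 with all libraries.
With SNP50, 7 members fell and 1 rose, where 1.41% of all genes passed, 0.454% higher and 0.958% lower.
Slc1a4 fell by 0.81 on the log2 scale (adjusted p = 0.00934), Slc7a7 by 0.54, Bcat1 by 0.40, Slc7a5 by 0.36, Asns by 0.33, Mthfd2 by 0.30 and Psat1 by 0.26 (adjusted p = 0.0498), and Shmt1 rose by 0.29 (adjusted p = 0.0492).
The Psat1 and Shmt1 calls were each lost in 14 of the 15 fits that left out 1 library, all but the one without Control replicate 3, and those of Slc7a5 and Asns in 10 and 9. Those of Slc1a4, Slc7a7 and Mthfd2 were lost without SNP50 replicate 1 or 3, and that of Mthfd2 also without SNP50 replicate 2. With only the 6 libraries of the comparison all 8 calls were lost, where 0.00574% of all genes passed.
The count was 1 without SNP50 replicate 1 (0.458% of all genes passed) or without SNP50 replicate 3 (0.443%), and 3 without SNP50 replicate 2 (0.499%). Without Control replicate 2 it was 4 (1.21%), without Control replicate 1 it was 5 (0.968%), and without Control replicate 3 it was 20 (18.9%).
It was 4 to 6 without any 1 of the SNP100, MSNP and HMSNP libraries.
The median log2 fold change of the members was -0.12 with SNP100 and -0.13 with SNP50, against -0.02 and 0.00 over all genes.

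Between SNP50 and SNP100, whose doses differ, 0 members and 0 of all genes (0%) passed with edgeR, while 4 members and 867 genes (4.37%) were under 0.05 before adjustment, and 0 members passed with DESeq2.
Without Control replicate 3, which enters through the shared spread, 1 member passed there (Gpt2), where 0.433% of all genes did.

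MSNP and SNP100 share a nominal diameter, but MSNP was given at 4 times the dose.
Of the members 15 were higher and 1 lower with MSNP than with SNP100, where 17.9% of all genes passed, 10.4% higher and 7.53% lower, and the count was 26 without Control replicate 3, where 33.1% passed. With the filterByExpr filter it was 18 of 33 members, where 26.3% of 14284 genes passed.
Slc38a7 gave 1.17 (SE 0.0983, adjusted p = 4.98e-07) and Cth 1.003 (SE 0.111, adjusted p = 9.04e-06), followed by Slc1a4 at 0.92, Gpt2 at 0.83 and Slc3a2 at 0.75.
The lower member was Slc43a2 at -0.61.
Labels do not say whether libraries of one group came from separate cultures, so these p-values measure the spread between these samples, which may be technical.

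Other genes of the same pathways were read from lists that hold no member, which were also chosen with earlier results of these data known. Each count below stands against the shares over all genes: with MSNP 22.8% passed (11.8% higher and 11% lower), with HMSNP 5.16% (2.46% higher and 2.7% lower).
Of 23 other transporters of amino acids and related compounds 15 were tested, and 9 rose and 0 fell with MSNP, while 1 rose and 1 fell with HMSNP.
Slc6a8, a creatine transporter, rose with MSNP from 184, 179.9 and 157 CPM to 520.5, 515 and 520.3 CPM, a log2 fold change of 1.58 (SE 0.0765, adjusted p = 8.58e-10), and read 142, 136 and 139 CPM with HMSNP (-0.32, adjusted p = 0.0227), a call lost without any 1 HMSNP library (adjusted p up to 0.102), among others.
The MSNP libraries lay above and the HMSNP libraries below every control.
Slc36a4, an amino acid transporter of the proton-coupled family, rose by 1.15 (SE 0.172, adjusted p = 1.39e-04) with MSNP and gave 0.27 with HMSNP (adjusted p = 0.337).
Slc1a2 held 0 counts in every control library and 3, 7 and 3 counts with MSNP, which is at or near the floor of 3 counts per library.

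Of 23 other serine, glycine and folate genes 21 were tested, of which 3 rose and 2 fell with MSNP, near the share over all genes, and 0 rose and 3 fell with HMSNP.
Gldc, of the glycine cleavage system, fell with HMSNP by a log2 fold change of -1.28 (SE 0.215, adjusted p = 0.00254).
Of 17 other glutamine, glutamate, proline and arginine genes 15 were tested, of which 3 rose and 4 fell with MSNP and 0 rose and 2 fell with HMSNP.
Pck2, the mitochondrial enzyme that makes phosphoenolpyruvate from oxaloacetate, fell with HMSNP from 71, 77.3 and 83.1 CPM to 25.7, 25.3 and 25.1 CPM, a log2 fold change of -1.60 (SE 0.0709, adjusted p = 5.81e-09).
Its value with MSNP was -0.01 (adjusted p = 0.953).
Of 13 other methionine and cysteine genes 12 were tested, of which 3 rose and 2 fell with MSNP and 0 passed with HMSNP.
The median log2 fold change with HMSNP was -0.04 for the transporters, -0.17 for the serine, glycine and folate list, -0.13 for the glutamine, glutamate, proline and arginine list and 0.01 for the methionine and cysteine list, against -0.35 for the members.

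Of 20 regulators and further ATF4 targets 19 were tested, of which 10 rose and 3 fell with MSNP and 1 rose and 9 fell with HMSNP.
Between the porous particles, 13 of the 19 were lower and 2 higher with HMSNP, with a median log2 difference of -1.11, where 20.2% of all genes passed, 11% lower and 9.22% higher.
Chac1, which degrades glutathione, gave 0.65 with MSNP and -2.99 with HMSNP, Trib3, a feedback inhibitor of ATF4, 1.33 and -2.71, Ddit3, a stress-induced C/EBP factor, 2.39 and -0.70, and Atf3 2.48 and 0.86, all with an adjusted p under 0.05.
Nupr1, a stress-induced chromatin protein, stood at 35.5, 37.5 and 52.4 CPM in the controls, 33.1, 30.3 and 31.8 CPM with MSNP and 14, 12.7 and 14.1 CPM with HMSNP.
The HMSNP libraries lay far below the others, and Control replicate 3 was the highest control.
The fit gave -0.40 (SE 0.116, adjusted p = 0.0211) for MSNP and -1.62 (SE 0.12, adjusted p = 1.35e-06) for HMSNP, and without Control replicate 3 -0.19 (adjusted p = 0.0211) and -1.42 (adjusted p = 1.30e-10).
The MSNP call was lost without MSNP replicate 2 (adjusted p = 0.0755) or MSNP replicate 3 (adjusted p = 0.0508).
Ppp1r15a, which restarts translation by reversing eIF2 phosphorylation, rose with MSNP by 1.56 (SE 0.0691, adjusted p = 3.31e-10) and gave 0.06 with HMSNP (adjusted p = 0.633).
Atf4 itself, chosen here after its values were seen, gave 0.44 (SE 0.087, adjusted p = 0.00162) with MSNP and -0.89 (SE 0.0877, adjusted p = 2.21e-05) with HMSNP.
ATF4 protein was not analysed here.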

How the data were processed

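Poly(A) mRNA of RAW 264.7 macrophages was sequenced by the authors in 15 libraries, 3 in each of 5 groups, from directional paired-end libraries. The deposited table holds raw counts of each gene, 1 column for each library, and was not normalized. The submitters' processing notes name cutadapt 1.16, STAR 2.7.9a, featureCounts 1.6.3 and GRCm39. The annotation, the strand setting and whether reads or pairs were counted are not given in the sources used here. Genes that overlap on the opposite strand are therefore named for part of the members. Exon bases are also shared with opposite-strand genes, not named above, in Aldh18a1, Bcat1, Bcat2, Got2, Mthfd1, Mthfd1l, Pycr1, Pycr3, Slc38a1, Slc38a2 and Slc7a1. Groups were taken from the labels, and doses and diameters from the methods of the study.

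The test was edgeR 4.0.16's quasi-likelihood test in R 4.3.3 (TMM scaling, 1 model of all 15 libraries, no replicate block) on the 19839 genes whose summed count reached 10, with Benjamini-Hochberg adjustment and a threshold of 0.05. Standard errors and 95% intervals came from the same fit. CPM used TMM library sizes, and RPKM the summed exon length in GENCODE vM39, merged over all transcripts of a gene. Counts of 3 or fewer were treated as a floor, and intervals cover the spread between libraries. The steps were tested on simulated counts with known changes, in which all groups had the same spread. The controls here vary more than the treated groups, so that test does not cover the p-values against them.

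The members and all gene lists were chosen with earlier results of these data known. Values by library are given for the 13 members that passed with a log2 fold change of at least 1 in size in any of the 7 comparisons, or that passed in opposite directions against the controls. Of the other lists, at most 6 genes each are named, with a log2 fold change of at least 1 in size and an adjusted p under 0.05 for MSNP or HMSNP against the controls, and Atf4 is named besides, chosen after its values were seen. The alternatives were DESeq2 1.42.0, RLE scaling, the filterByExpr filter, no filter, only the 6 libraries of a comparison, a replicate block, an offset for this exon length, alone and without Control replicate 3, and leaving out each library in turn.

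The replicate numbers were checked for pairing by the correlation of deviations from the group means: 10 of 30 pairs of libraries with the same number had a correlation over 0.1. The numbers were not taken as pairs, but with 3 libraries in each group this check cannot exclude pairing.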

Additional observations from a re-analysis of the deposited data

How the results depend on the processing

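The 82 calls of a member in a comparison kept their direction in all 1886 values that the 23 alternatives gave, and 1701 of these passed the threshold. The other 185 did not. Among the 3581 alternative values of the 156 results that had not passed, 149 did. The share of all genes called stands in parentheses after each count of members. In SNP100 against Control, 1 member in the fit reported (0.912%), there were 5 with DESeq2 (2.45%), 0 with no filter on low counts (0.594%), 0 with only the 6 libraries (0%) and 11 with the length offset without Control replicate 3 (5.92%). In SNP50 against Control, 8 as reported (1.41%), there were 4 with no filter (0.691%), 0 with only the 6 libraries (0.00574%) and 19 with the length offset without Control replicate 3 (17.8%). With only the 6 libraries, MSNP against Control, 14 (22.8%), gave 10 (13%), and HMSNP against Control, 18 (5.16%), gave 6 (0.439%). MSNP against SNP100, 16 (17.9%), gave 26 with only the 6 libraries (40.9%) and 25 with the length offset without Control replicate 3 (33.8%), and SNP50 against SNP100, 0 (0%), gave 3 with that offset (0.999%). Leaving out 1 library in turn gave 0 to 10 members for SNP100 (0.29 to 5.16%), 1 to 20 for SNP50 (0.443 to 18.9%), 13 to 22 for MSNP (17.4 to 33.2%) and 13 to 20 for HMSNP against Control (2.51 to 25.2%), 22 to 26 for HMSNP against MSNP (16.1 to 33.9%), 15 to 26 for MSNP against SNP100 (13.4 to 33.1%) and 0 to 1 for SNP50 against SNP100 (0 to 0.433%). The fits with 6 libraries take the spread from those libraries alone. There the counts fell in each comparison with Control and rose in HMSNP against MSNP and MSNP against SNP100. Between libraries of a group the mean chi-square was 66.2 to 205 in the controls and at most 13.9 in the treated groups. The causes of these changes in the counts were not tested.

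With the replicate block the counts were 0 for SNP100 (0.716%), 5 for SNP50 (0.907%), 14 for MSNP (22.1%) and 17 for HMSNP against Control (4.46%), 24 for HMSNP against MSNP (19.2%), 16 for MSNP against SNP100 (16.9%) and 0 for SNP50 against SNP100 (0%). Labels and methods do not say whether the numbers pair the samples. With the filterByExpr filter 1 of 33 members passed for SNP100 (1.85%) and 8 for SNP50 against Control (2.86%).

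Depth limits Slc7a3 and Cbs, which stayed below 1 CPM.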
